A study of Homo sapiens with 8 samples.

Results

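Transcript levels of 10 human genes for enzymes that reduce quinones, aldehydes and ketones were followed across 8 poly(A) RNA libraries of MH7A cells, a synovial cell line from a patient with rheumatoid arthritis that was immortalised with a viral T antigen. The genes were taken by symbol, from a list chosen with earlier results of these data known. Shares of these genes and of all genes are therefore set side by side only as a description. The list holds the quinone reductases NQO1 and NQO2 and the aldo-keto reductases AKR1C1, AKR1C2, AKR1C3, AKR1B1 and AKR1B10. It also holds the carbonyl reductases CBR1 and CBR3, and the prostaglandin reductase PTGR1. The listed genes are 10 of 38173 genes in the count table and 10 of the 16647 genes that were tested. AKR1B10 passed the filter on low counts only through the 2 Tub B libraries, while the other 9 genes were above the filter level in all 8 libraries.

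The cells fell into 4 groups of 2 libraries. The mock group was incubated without either agent according to the series' design text, and its treatment label gives DMSO. The TNF group received TNF-α at 20 ng for 24 h, given per millilitre in the design text and per microlitre in the treatment label. The TNF + Tub B group received TNF-α at 20 ng and Tub B at 60 µM together for 24 h, and the volume unit of its label is cut short. The Tub B group received Tub B at 60 µM for 24 h. Tub B is tubuloside B, a phenylethanoid glycoside, and the title of the series concerns its action on the kinase TAK1 in rheumatoid synovium. All groups are the same cell line, so none carries synovial macrophages, lymphocytes or vessels. Nothing in the labels ties a group's libraries to separate cultures, and the p-values therefore measure the spread between these libraries, which may be technical. That spread was estimated jointly over the 4 groups. The mock libraries differed more from each other, with a chi-square per degree of freedom of 5.36. It was 2.52 in TNF, 2.29 in TNF + Tub B and 2.69 in Tub B. The p-values of comparisons with mock may therefore be too small.

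The enzymes belong to different folds but use NADPH, or in the case of NQO2 a related cofactor. The NQO enzymes turn quinones into hydroquinones, the aldo-keto and carbonyl reductases turn carbonyl groups into alcohols, and PTGR1 reduces double bonds next to carbonyl groups. NQO1, the AKR1C genes, AKR1B10, CBR3 and PTGR1 are known in human cells as targets of NRF2, a transcription factor that the adaptor KEAP1 holds at low levels until electrophiles modify it, and that binds antioxidant response elements. NQO1 is also a known target of the aryl hydrocarbon receptor. Several members act on lipid mediators of inflamed tissue: AKR1C3, AKR1B1 and CBR1 on prostaglandins, and PTGR1 on prostaglandins and leukotriene B4.

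Library totals ran from 14073186 to 31937334 assigned counts, and 3 counts, the upper limit that a count of 0 allows, corresponded to 0.0992 to 0.208 CPM (counts-per-million of the library total, scaled by the trimmed mean of M-values). Of 12 listed synovial fibroblast markers, all were in the table, with a summed level of 24695 to 29042 CPM in mock, 24842 to 25876 in TNF, 19564 to 19844 in TNF + Tub B and 25584 to 27181 in Tub B, although the lubricin gene PRG4 had few counts in every library. The 7 macrophage markers summed to 2.55 to 3.70 CPM, the 5 T cell markers to 0 to 0.173 CPM and the 3 B cell markers to 0.0693 to 0.520 CPM over the 8 libraries. The 5 endothelial markers summed to 4.96 to 4.98 CPM in mock, 8.07 to 9.47 in TNF, 5.61 to 6.38 in TNF + Tub B and 3.69 to 3.80 in Tub B, and the 5 epithelial markers to 3.90 to 6.58 CPM over all libraries. The fibroblast sum was lowest in TNF + Tub B and the endothelial sum highest in TNF, but few genes set either sum. Most of the fibroblast sum was COL1A1 and COL1A2, with means of 7887 and 11408 CPM in mock and 4941 and 7677 in TNF + Tub B. Most of the endothelial sum was TEK, with means of 3.89 CPM in mock and 7.11 in TNF. The sums are thus no measure of a mix of cells, and their part in the results below was not tested. In bulk RNA, fewer cells of a type and less RNA per cell cannot be told apart.

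Among the 9 members above the filter level in all 8 libraries, Tub B alone raised 8, with the largest changes for AKR1C1 at 6.70-fold and NQO1 at 5.05-fold. Added to TNF it raised 7 of the 9, with the largest changes for AKR1C1 at 8.36-fold and NQO1 at 3.56-fold. AKR1B10 entered the test only through the libraries in which it is high, so it is left out of these counts and described by its counts below. TNF alone raised AKR1B1, the aldose reductase gene, 5.38-fold and CBR3 2.12-fold. The edgeR test with the scaling used throughout called no member lower with either agent alone or when Tub B was added to TNF, but NQO2 was called lower with TNF under 2 other scalings. A gene was called at a p below 0.05 from the edgeR quasi-likelihood fit, adjusted by the Benjamini-Hochberg method over 16647 genes. Called higher among all tested genes were 4.83% in Tub B against mock, 7.11% in TNF + Tub B against TNF and 17.2% in TNF against mock. Called lower were 7.91%, 13.1% and 13.3%. A rise of at least 2-fold was called for 3 of the 9 in Tub B against mock (NQO1, AKR1C1 and AKR1C3), beside 0.294% of all tested genes and 0.255% of those that did not pass the filter through a single group, and for 3 members in TNF + Tub B against TNF (NQO1, AKR1C1 and AKR1C2), beside 0.372%. In TNF against mock it was called for AKR1B1 and CBR3, beside 4.16%. How reads were divided between AKR1C1 and AKR1C2 is uncertain, as given below, so their rises are not independent. With 2 libraries a group, pairs that do not overlap are common: 52.7% of all tested genes had CPM that did not overlap in Tub B against mock, 59.6% in TNF + Tub B against TNF, 63.2% in TNF against mock and 62.0% in TNF + Tub B against Tub B.

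**Figure D1:**
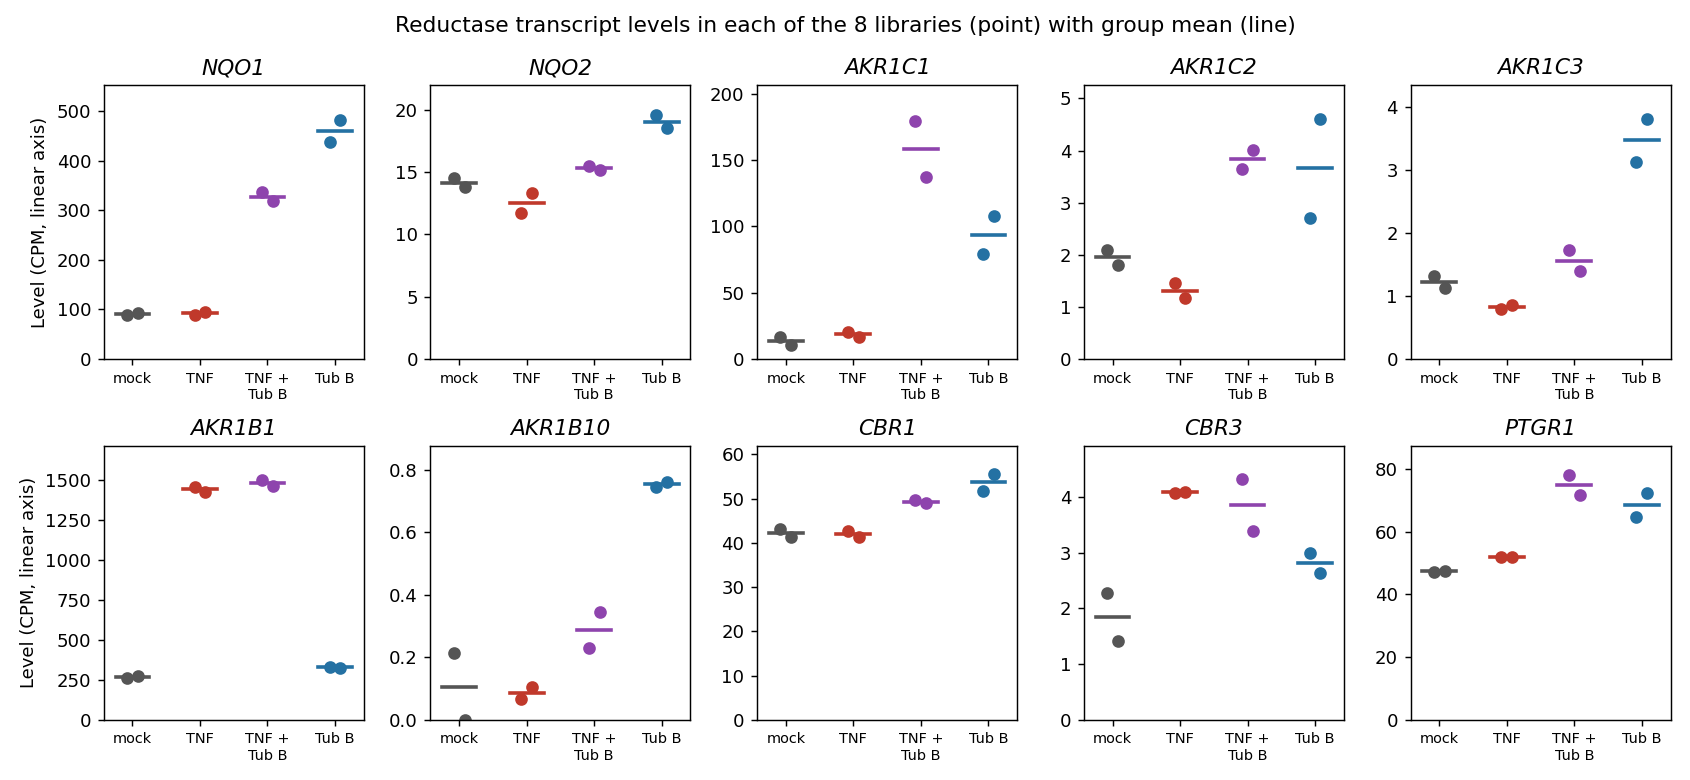
Level of each reductase gene (CPM, linear axis from 0, a scale of its own in each panel) in the 8 libraries; points are libraries and lines are group means. NQO1, AKR1C1 and PTGR1 sit higher in both groups that received Tub B, and AKR1B1 sits higher in both groups that received TNF.

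NQO1 is the textbook quinone reductase, a flavoprotein that turns quinones directly into hydroquinones. It was at 88.9 and 93.4 CPM in the mock libraries, 89.7 and 94.9 in TNF, 336 and 319.7 with both agents, and 437 and 483 in Tub B. The mock and TNF libraries overlapped, both Tub B treatments lay far above them, and TNF + Tub B lay below Tub B without overlap. NQO1 rose with Tub B by a log2 fold change of 2.34 ± 0.06 (SE; adjusted p = 1.77e-14, edgeR) and with Tub B on top of TNF by 1.83 ± 0.06 (adjusted p = 1.04e-12). TNF alone gave 0.02 ± 0.06, with a 95% interval from -0.10 to 0.14 (adjusted p = 0.856).

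With both agents NQO1 was 0.713-fold the level under Tub B alone (log2 fold change -0.49 ± 0.05, adjusted p = 1.22e-06). The interaction term, which asks whether the Tub B response differs in the presence of TNF, was -0.51 ± 0.08 for NQO1 (95% interval -0.67 to -0.34, adjusted p = 0.000586, edgeR). Tub B thus raised NQO1 less when TNF was present, though still more than 3-fold.

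The 250 bases before the annotated start of NQO1 are shown because a reader will look there for the antioxidant response element through which NRF2 is known to act. They lie at chr16:69726561-69726810 (RefSeq, GRCh38.p14, minus strand) and are 61.6% G or C. Capitals would mark matches to any of 4 motifs, and none was found.
NQO1: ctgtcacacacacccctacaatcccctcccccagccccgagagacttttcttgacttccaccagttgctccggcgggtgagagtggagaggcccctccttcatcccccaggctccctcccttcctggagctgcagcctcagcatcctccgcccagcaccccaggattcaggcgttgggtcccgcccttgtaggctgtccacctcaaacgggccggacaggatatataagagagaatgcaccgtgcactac
The motifs were searched on both strands: TGACNNNGC for the antioxidant response element core, TGANTCA for AP-1, GCGTG for the aryl hydrocarbon receptor core and, for NF-kB, GGG and TTTCC with any 2 bases between them. Of 27305 human promoter windows of the same length, 11% held the first, 6.60% the second, 31.9% the third and 1.73% the fourth. A core match is a description of letters and not of binding, and the absence of one says only that these letters are not in this window.

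NQO2, which takes its electrons from dihydronicotinamide riboside in place of NADPH, was at 14.5 and 13.8 CPM in mock, 11.7 and 13.3 in TNF, 15.5 and 15.2 with both agents, and 19.6 and 18.5 in Tub B. The groups did not overlap, but the steps between them were small. NQO2 rose 1.34-fold with Tub B (log2 fold change 0.42 ± 0.09, adjusted p = 0.00439, edgeR), a call lost without Tub B replicate 1 (0.38, adjusted p = 0.0558). Its 1.24-fold rise with Tub B on top of TNF (0.31 ± 0.10, adjusted p = 0.0309) was lost in DESeq2 (adjusted p = 0.248), with no filter (adjusted p = 0.0841), without TNF replicate 1 (adjusted p = 0.321) and without either TNF + Tub B library (adjusted p = 0.164 and 0.111). With both agents it was lower than under Tub B alone by edgeR (-0.31 ± 0.09, adjusted p = 0.0199), but not by DESeq2 (adjusted p = 0.139) or without TNF + Tub B replicate 1 (0.0845), TNF + Tub B replicate 2 (0.0822) or Tub B replicate 1 (0.122). TNF alone gave -0.20 ± 0.09 (adjusted p = 0.121), which passed as lower under scaling by library totals (-0.27, adjusted p = 0.0320) or upper quartiles (-0.26, adjusted p = 0.0367).

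The AKR1C genes encode hydroxysteroid dehydrogenases that sit side by side on chromosome 10. AKR1C1 is known for inactivating progesterone, AKR1C2 for inactivating dihydrotestosterone, and AKR1C3 for making active androgens and prostaglandin F. The longest principal transcripts of AKR1C1 and AKR1C2 were 97.6% identical over their aligned bases, and each was 88.4% and 88.6% identical to AKR1C3 in that order. In the GENCODE transcripts, 17.4% of the 100-base windows of AKR1C1 and 32.9% of those of AKR1C2 occurred word for word in another gene, almost all in each other, against 4.98% for AKR1C3. The read length and the treatment of reads with several matches are not given in the sources used here, so how counts were divided between AKR1C1 and AKR1C2 is uncertain.

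The promoter windows of the 3 genes are shown together because the genes are neighbours, near copies, and all rose with Tub B. AKR1C1 lies at chr10:4963165-4963414 (plus strand), AKR1C2 at chr10:5003858-5004107 (minus strand) and AKR1C3 at chr10:5048531-5048780 (plus strand), all from RefSeq on GRCh38.p14. Capitals mark bases that are not identical to AKR1C1 in the alignment, including overhanging ends.
AKR1C1: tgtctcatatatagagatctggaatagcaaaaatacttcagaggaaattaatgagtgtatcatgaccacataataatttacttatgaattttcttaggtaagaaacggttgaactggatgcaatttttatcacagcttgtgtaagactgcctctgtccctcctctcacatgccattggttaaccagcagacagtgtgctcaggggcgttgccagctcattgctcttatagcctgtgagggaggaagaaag
AKR1C2: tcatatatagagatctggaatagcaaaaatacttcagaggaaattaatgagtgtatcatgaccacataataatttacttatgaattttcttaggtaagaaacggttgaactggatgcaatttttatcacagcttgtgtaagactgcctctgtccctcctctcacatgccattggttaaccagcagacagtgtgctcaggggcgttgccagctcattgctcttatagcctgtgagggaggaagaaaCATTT
AKR1C3: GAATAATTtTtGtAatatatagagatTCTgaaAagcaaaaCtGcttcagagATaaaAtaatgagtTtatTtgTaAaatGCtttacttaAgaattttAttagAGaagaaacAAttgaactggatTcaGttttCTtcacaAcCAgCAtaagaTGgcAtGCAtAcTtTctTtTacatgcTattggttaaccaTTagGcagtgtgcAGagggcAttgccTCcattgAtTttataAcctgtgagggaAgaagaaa
The AKR1C2 window matched AKR1C1 at 245 of 246 aligned bases, and the AKR1C3 window at 185 of 241 (76.8%). None of the 4 motifs matched in these 3 windows.

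AKR1C1 was at 16.5 and 10.4 CPM in mock, 20.7 and 16.7 in TNF, 179.5 and 137 with both agents, and 79.1 and 108 in Tub B. Both groups with Tub B lay far above both without, and the pair with both agents lay above the pair with Tub B alone. The log2 fold change was 2.74 ± 0.17 in Tub B against mock (adjusted p = 1.04e-08, edgeR) and 3.06 ± 0.16 in TNF + Tub B against TNF (adjusted p = 3.30e-10). AKR1C1 was 1.70-fold higher with both agents than with Tub B alone (0.76 ± 0.14, adjusted p = 0.000347), a call that DESeq2 did not make (adjusted p = 0.0796).

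For AKR1C1 the response to TNF alone depended on 1 library. It was 0.44 ± 0.20 (95% interval 0.02 to 0.87, adjusted p = 0.110, edgeR) with all libraries, 0.87 (adjusted p = 0.00821) without mock replicate 1 and 0.20 without mock replicate 2, and it passed with no filter (0.44, adjusted p = 4.89e-06). The interaction of AKR1C1 was 0.32 ± 0.24 (95% interval -0.20 to 0.83, adjusted p = 0.583).

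AKR1C2 was at 2.10 and 1.80 CPM in mock, 1.45 and 1.17 in TNF, 3.64 and 4.02 with both agents, and 2.71 and 4.61 in Tub B, from 22 to 91 counts per library. TNF lay below mock and both Tub B groups lay above it, and the Tub B pair was wide enough to hold the TNF + Tub B pair inside it. AKR1C2 rose 2.84-fold when Tub B was added to TNF (1.51 ± 0.27, adjusted p = 0.000529, edgeR). In TNF + Tub B it had 63 and 58 counts beside 3106 and 1974 for AKR1C1. Whether AKR1C1 reads were assigned to AKR1C2 was not tested. Its 1.83-fold rise with Tub B alone (0.88 ± 0.24, adjusted p = 0.0244) was lost in DESeq2 (adjusted p = 0.0998), without mock replicate 1 (1.00, adjusted p = 0.0583), without mock replicate 2 (0.79, adjusted p = 0.0626) and without Tub B replicate 2 (0.45, adjusted p = 0.396), and was 1.22 without Tub B replicate 1.

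AKR1C3 was at 1.32 and 1.13 CPM in mock, 0.793 and 0.851 in TNF, 1.73 and 1.39 with both agents, and 3.13 and 3.80 in Tub B, from 16 to 75 counts per library. Tub B alone gave the highest pair by a wide margin, and TNF the lowest. AKR1C3 rose 2.78-fold with Tub B (1.47 ± 0.23, adjusted p = 0.000371, edgeR) and was 0.456-fold that level with both agents (-1.13 ± 0.24, adjusted p = 0.00171). Its rise with Tub B on top of TNF (0.94 ± 0.31, adjusted p = 0.0377) was lost in DESeq2 (adjusted p = 0.244), limma-voom (adjusted p = 0.0501), without TNF replicate 1 (0.193) or 2 (0.0983) and without TNF + Tub B replicate 1 (0.278) or 2 (0.0617).

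AKR1C1 and AKR1C3 therefore moved in opposite directions when TNF was added to Tub B, both past the edgeR test. DESeq2 did not call the rise of AKR1C1 (adjusted p = 0.0796). AKR1C1 took 82.7% and 78.1% of the counts of AKR1C1 to AKR1C4 in the mock libraries, 90.2% and 89.2% in TNF, 97.1% and 96.2% with both agents, and 93.1% and 92.7% in Tub B. AKR1C3 took 6.60% and 8.44% in mock, 3.46% and 4.55% in TNF, 0.938% and 0.975% with both agents, and 3.68% and 3.25% in Tub B. With the 4 rows added into 1, which does not depend on how the assigned reads were divided among the copies, the family was at 19.9 and 13.4 CPM in mock, 22.9 and 18.7 in TNF, 185 and 142 with both agents, and 84.9 and 117 in Tub B. The summed AKR1C row rose by 2.55 with Tub B (adjusted p = 1.35e-08, edgeR) and by 2.96 with Tub B on top of TNF (adjusted p = 3.47e-10), and was 0.70 higher with both agents than with Tub B alone (adjusted p = 0.000585). The sum follows AKR1C1, and its direction in that last comparison is opposite to that of AKR1C3.

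**Figure D2:**
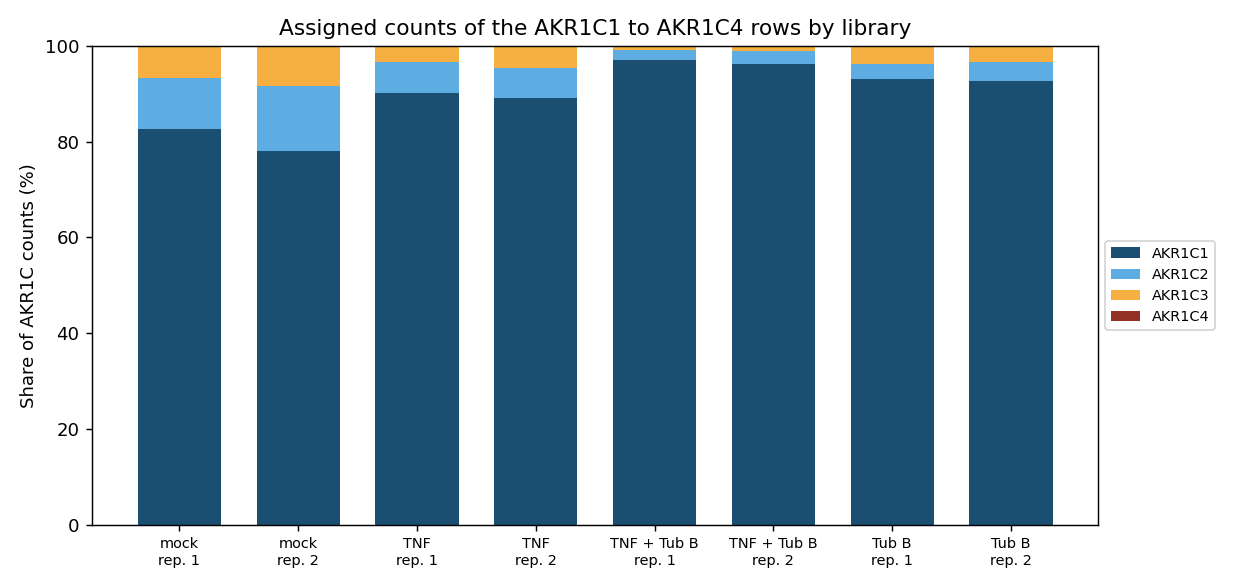
Share (%) of the counts of AKR1C1 to AKR1C4 that was assigned to each gene in each of the 8 libraries, as stacked bars. AKR1C1 holds 78.1% to 97.1% of the counts, with its highest shares in TNF + Tub B; AKR1C4 had at most 2 counts in any library.

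AKR1B1 encodes aldose reductase, which opens the polyol pathway by reducing glucose and also acts as a prostaglandin F synthase. It was at 265 and 272 CPM in mock, 1462 and 1425 in TNF, 1500.1 and 1465 with both agents, and 333 and 324 in Tub B. Both groups with TNF lay several-fold above both without. The log2 fold change was 2.43 ± 0.04 in TNF against mock (adjusted p = 1.81e-17, edgeR) and 2.17 ± 0.04 in TNF + Tub B against Tub B (adjusted p = 1.01e-16). Tub B alone raised AKR1B1 1.23-fold (0.29 ± 0.04, adjusted p = 0.000145).

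When TNF was present, Tub B gave 0.04 ± 0.04 for AKR1B1 (95% interval -0.05 to 0.12, adjusted p = 0.564), which became 0.16 (adjusted p = 0.00593) under scaling by library totals, a scaling that moved the median of all genes by 0.12 in this comparison. Its interaction term was -0.25 ± 0.06 (95% interval -0.38 to -0.13, adjusted p = 0.0165, edgeR). That call was lost with library totals (-0.19, adjusted p = 0.0694), without TNF replicate 1 (adjusted p = 0.0942) or 2 (0.0621), without TNF + Tub B replicate 1 (0.0540) or 2 (0.0676), and without Tub B replicate 1 (0.0705).

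The AKR1B1 promoter window is shown because this gene alone among the members rose more than 4-fold with TNF. It lies at chr7:134459101-134459350 (RefSeq, GRCh38.p14, minus strand), is 68.0% G or C, and holds in capitals a reverse-strand match to the aryl hydrocarbon receptor core that begins 213 bases before the start. It holds no match to the NF-kB motif searched.
AKR1B1: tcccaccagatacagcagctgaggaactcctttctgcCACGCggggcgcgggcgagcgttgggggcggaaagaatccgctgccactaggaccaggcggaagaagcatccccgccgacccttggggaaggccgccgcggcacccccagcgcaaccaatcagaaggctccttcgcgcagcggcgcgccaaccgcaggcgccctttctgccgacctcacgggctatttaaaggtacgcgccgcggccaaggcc

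AKR1B10, the neighbour of AKR1B1 and a reductase of retinal and other aldehydes, was close to the limit of detection. Its counts were 6 and 0 in mock, 2 and 2 in TNF, 4 and 5 with both agents, and 16 and 15 in Tub B. The Tub B libraries were the highest pair, and the mock pair spanned the TNF pair. Scaled for depth, the 31 counts in Tub B were 5.76-fold the 6 in mock (95% interval 2.37 to 16.9, counting error only), and the 9 with both agents were 0.377-fold the 31 with Tub B alone (0.158 to 0.810). Because the filter let AKR1B10 in only through Tub B, the edgeR call of its rise with Tub B (2.48 ± 0.62, adjusted p = 0.0131) depends on the outcome and is given as a description. AKR1B10 no longer passed when mock replicate 2 (1.79, adjusted p = 0.0741), Tub B replicate 1 (2.50, adjusted p = 0.0794) or Tub B replicate 2 (2.48, adjusted p = 0.107) was left out. Without mock replicate 1 the remaining mock library is at 0, and the fitted value of 6.92 is no measure of size. The lower AKR1B10 level with both agents than with Tub B alone was not called with all libraries (-1.39 ± 0.58, adjusted p = 0.0909, edgeR). It was called when only those groups were fitted (-1.38, adjusted p = 0.0426, edgeR). This comparison too depends on the Tub B libraries that let AKR1B10 through the filter. Its ratio, interval and calls are therefore given as a description and not as evidence of a fall.

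CBR1, a cytosolic carbonyl reductase of quinones, prostaglandins and anthracycline drugs, was at 43.2 and 41.4 CPM in mock, 42.6 and 41.2 in TNF, 49.6 and 48.9 with both agents, and 51.7 and 55.6 in Tub B. The mock and TNF pairs overlapped, and both pairs with Tub B lay above them. CBR1 rose 1.26-fold with Tub B (0.34 ± 0.06, adjusted p = 0.00109, edgeR). Its 1.17-fold rise on top of TNF (0.23 ± 0.06, adjusted p = 0.0122) was lost in DESeq2 (adjusted p = 0.0872), without TNF replicate 1 (0.0540) or 2 (0.0942) and without TNF + Tub B replicate 1 (0.103) or 2 (0.0603).

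The CBR1 window is shown because it held the single antioxidant response element core among the 8 member windows. It lies at chr21:36069774-36070023 (RefSeq, GRCh38.p14, plus strand), and capitals mark that core, on the reverse strand from 159 to 151 bases before the start, and an aryl hydrocarbon receptor core that begins 34 bases before it.
CBR1: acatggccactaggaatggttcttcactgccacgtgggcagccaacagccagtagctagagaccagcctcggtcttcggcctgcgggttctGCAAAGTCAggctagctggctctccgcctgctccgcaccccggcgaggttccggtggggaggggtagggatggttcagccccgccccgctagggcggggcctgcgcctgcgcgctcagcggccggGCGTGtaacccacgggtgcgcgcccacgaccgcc
Among the 8 windows, GCGTG was found in 3 (NQO2, AKR1B1 and CBR1), TGACNNNGC in 1, and the AP-1 and NF-kB motifs in 0.

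CBR3, the adjacent homologue of CBR1, was at 2.27 and 1.41 CPM in mock, 4.07 and 4.10 in TNF, 4.33 and 3.40 with both agents, and 2.99 and 2.63 in Tub B, from 25 to 123 counts per library. The mock pair was lowest and the TNF + Tub B pair spanned the TNF pair. CBR3 rose 2.12-fold with TNF (1.08 ± 0.21, adjusted p = 0.000677, edgeR), and this ranged from 0.84 without mock replicate 2 to 1.53 without mock replicate 1. Tub B on top of TNF gave -0.07 ± 0.20 (95% interval -0.49 to 0.36), and Tub B alone 0.55 ± 0.23 (adjusted p = 0.143), which passed without mock replicate 1 (0.99, adjusted p = 0.0468). The antisense gene CBR3-AS1 covers 42.2% of the exon bases of CBR3 on the other strand, and the library kit did not keep strand, so reads of the pair cannot be told apart there. CBR3-AS1 was at 1.99 and 1.86 CPM in mock and 1.95 and 2.34 in TNF (0.12 ± 0.23, adjusted p = 0.734). Opposite-strand transcripts also cover 17.7% of the exon bases of NQO1 and 18.9% of those of CBR1, but neither transcript was among the counted genes. For NQO2, LINC01011 covers 2.53% of the exon bases on the same strand and the pseudogene HTATSF1P2 5.46% on the other.

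PTGR1, which inactivates leukotriene B4 and reduces double bonds next to carbonyl groups in prostaglandins and lipid peroxidation products, was at 47.1 and 47.5 CPM in mock, 52.0 and 51.8 in TNF, 77.9 and 71.6 with both agents, and 64.7 and 72.2 in Tub B. Both pairs with Tub B lay above both without, and they overlapped each other. PTGR1 rose 1.45-fold with Tub B (0.53 ± 0.06, adjusted p = 1.79e-05, edgeR) and 1.44-fold with Tub B on top of TNF (0.53 ± 0.06, adjusted p = 5.57e-06). The interaction of PTGR1 was -0.00 ± 0.09, with a 95% interval from -0.19 to 0.18. TNF alone gave 0.13 ± 0.06 (adjusted p = 0.121).

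**Figure D3:**
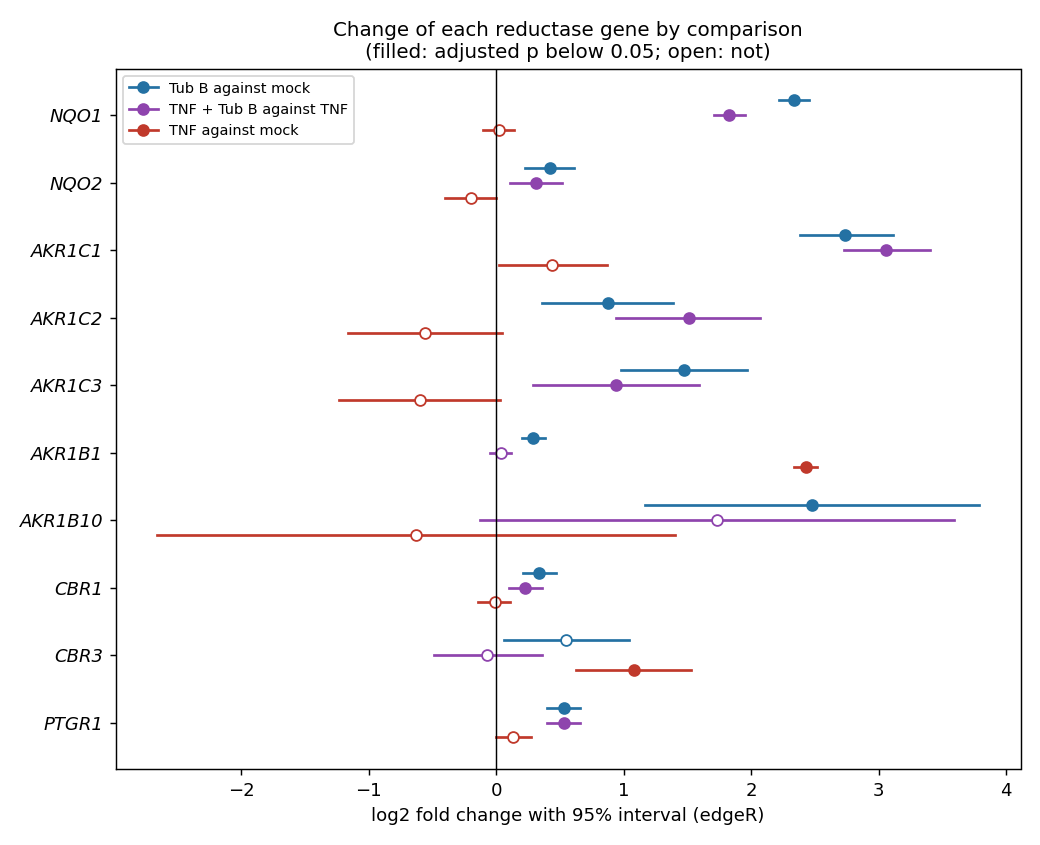
Log2 fold change of each reductase gene with its 95% interval (edgeR) for Tub B alone, TNF alone and Tub B on top of TNF; filled points passed an adjusted p of 0.05, and AKR1B10 entered the test only through Tub B. The points for NQO1, NQO2, AKR1C1, AKR1C2, AKR1C3, CBR1 and PTGR1 are filled and to the right of 0 in both comparisons that add Tub B. AKR1B1 lies at 2.43 with TNF.

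Against Tub B alone, cells with both agents had 2 members higher (AKR1C1 and AKR1B1) and 3 lower (NQO1, NQO2 and AKR1C3), beside 14.3% and 12.1% of all tested genes. The interaction term was called lower for NQO1 and AKR1B1 and higher for 0 members by edgeR, also 0 at an unadjusted p under 0.05, in DESeq2 and in limma-voom. DESeq2 gave no adjusted p for the interaction of AKR1C2, AKR1C3, AKR1B10 and CBR3, so it could not call these genes. Among all genes the interaction term was called higher for 1.04% and lower for 3.20% by edgeR. In TNF against mock, 0 members were called lower by edgeR, DESeq2 or limma-voom, and 1 had an unadjusted p under 0.05 in edgeR. In both comparisons that add Tub B, 0 were called lower by any of the 3 tools, with 0 at an unadjusted p under 0.05 in edgeR. DESeq2 called fewer rises than edgeR among the 9 members, 6 in place of 8 in Tub B against mock and 4 in place of 7 in TNF + Tub B against TNF, and gave no adjusted p for AKR1C3 in the former. The median log2 fold change of the 9 members was 0.55 in Tub B against mock, 0.53 in TNF + Tub B against TNF and 0.02 in TNF against mock, beside 0.00, -0.00 and -0.00 over all tested genes. The comparisons of Tub B with mock and of TNF with mock share the mock libraries.

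Compared per kilobase of exon, AKR1B1 was the most abundant member in mock (73.3 CPM per kb), TNF (394) and TNF + Tub B (405), whether the length was that of all exons or of the longest principal transcript. In Tub B the order at the top depended on the length: NQO1 led with all exons (141 CPM per kb against 89.8 for AKR1B1) and AKR1B1 led with the transcript length (233 against 158). NQO1, CBR1 and PTGR1 formed the next tier in mock, at 28.0, 17.3 and 12.6 CPM per kb of exon, and at 31.3, 32.7 and 33.6 per kb of transcript, so their order is not settled. The remaining 6 members were below 4 CPM per kb in mock by either length. NQO2 (10084 bases of transcript, 11558 of exon) and AKR1C1 (6705 and 8765) were the longest members, which lowers their values per kb. CBR3 had 1169 bases by either length. Which transcripts the cells made was not tested, so the places of NQO2 and AKR1C1 in this order depend on the annotation. In mock CBR3 (1.58 CPM per kb of exon) and AKR1C1 (1.54) did not differ beyond their spread. AKR1C1 reached 18.0 CPM per kb of exon in TNF + Tub B and 10.7 in Tub B. AKR1B10 was last in every group, at 0.0495 to 0.432 CPM per kb of exon.

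Across the 8 libraries the members followed different courses, given here as Pearson correlations of log2 CPM that describe 8 points in 4 groups and carry no test. AKR1C1 and PTGR1 ran together (r = 0.987), as did NQO1 and CBR1 (0.971) and NQO2 and AKR1C3 (0.964). AKR1B1 was closest to CBR3 (0.841) and its correlation with NQO1 was -0.0336. Among 10169 other genes with a mean of at least 5 CPM, the closest to NQO1 were SLC7A11, the cystine importer (0.991), FTL, ferritin light chain (0.990), and PGD of the pentose phosphate pathway (0.990). The closest to AKR1C1 were TXN, thioredoxin (0.999), LRP8 (0.991) and TALDO1, transaldolase (0.990). The closest to PTGR1 were BLOC1S2 (0.997), TXN (0.987) and UBXN4 (0.986).

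The nearest courses to AKR1B1 were those of CYLD, a deubiquitinase (0.999), AMPD3 (0.998) and SOD2, mitochondrial superoxide dismutase (0.998), with 311 genes at 0.95 or more. CBR1 was nearest to NDUFA5 (0.989), ALDH3A2 (0.987) and TRIM13 (0.987). CBR3 was nearest to CHMP7 (0.983), LRRC75B (0.960) and ZNF701 (0.958). NQO2 was nearest to SPTBN4 (0.982), GPR135 (0.978) and AHCYL2 (0.976). AKR1C3 was nearest to SPIN1 (0.985), HP1BP3 (0.985) and CTSF (0.982), and AKR1C2 to AASDH (0.980), ARL6 (0.978) and CREBL2 (0.976). AKR1B10 had a single gene at 0.95 or more, RNF135 (0.956), followed by PLEKHA5 (0.944) and ZNF461 (0.944).

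Related enzymes outside the 10 were followed as lists, given by counts and medians that carry no test between lists. Over all tested genes, 4.83% were called higher and 7.91% lower in Tub B against mock. These shares were 7.11% and 13.1% in TNF + Tub B against TNF. Of 8 other aldo-keto reductases 4 were tested, and 0 were called in Tub B against mock by edgeR, DESeq2 or limma-voom, with 1 lower at an unadjusted p under 0.05 in edgeR. That gene, AKR1A1, the aldehyde reductase, was at 46.8 and 38.6 CPM in mock and 36.9 and 36.7 in Tub B (-0.23 ± 0.08, adjusted p = 0.0589), and was named after its value was seen. Of 31 other carbonyl and quinone reductases 30 were tested, and 3 were higher and 1 lower with Tub B, with a median of 0.06 beside 0.00 for all genes. DHRS3, a retinal reductase, fell by 1.05 ± 0.11 on the log2 scale (adjusted p = 5.28e-06, edgeR). AIFM2, the ubiquinone reductase FSP1 known for limiting ferroptosis, rose by 0.60 ± 0.08 (adjusted p = 5.94e-05), ZADH2 by 0.45 ± 0.06 (adjusted p = 3.68e-05) and DHRS7 by 0.21 ± 0.05 (adjusted p = 0.0137). With TNF, 5 of the 30 were higher and 7 lower, beside 17.2% and 13.3% of all tested genes. With Tub B on top of TNF 6 were higher and 2 lower.

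Aldehyde dehydrogenases, which oxidise the aldehydes that aldo-keto reductases reduce, had 6 of 15 tested genes higher and 1 lower with Tub B (median 0.10). ALDH2, the mitochondrial enzyme of acetaldehyde, rose by 0.67 ± 0.09 (adjusted p = 8.03e-05, edgeR), ALDH3A2, the fatty aldehyde enzyme, by 0.67 ± 0.07 (adjusted p = 7.89e-06) and ALDH5A1 by 0.59 ± 0.17 (adjusted p = 0.0247), while ALDH1B1 fell by 0.54 ± 0.07 (adjusted p = 9.31e-05). With TNF alone 2 were higher and 6 lower, beside 17.2% and 13.3% of all tested genes. Of the enzymes that conjugate electrophiles with glutathione and other groups, 5 of 14 tested were higher with Tub B by edgeR and limma-voom and 4 by DESeq2 (median 0.09). None was lower by these tools, with 0 lower at an unadjusted p under 0.05 in edgeR. Those higher included MGST1 (0.54 ± 0.05, adjusted p = 4.97e-07), GSTA4 (0.46 ± 0.10, adjusted p = 0.00436), GSTM2 (0.43 ± 0.08, adjusted p = 0.00228) and GSTM3 (0.38 ± 0.09, adjusted p = 0.00856).

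NRF2 targets of other enzyme classes rose with Tub B: 24 of 26 tested were higher in Tub B against mock (median 0.82) and 25 of 26 in TNF + Tub B against TNF (median 0.67), and 0 were lower in either by edgeR, DESeq2 or limma-voom, also at an unadjusted p under 0.05 in edgeR. SLC7A11 rose by 3.25 ± 0.12 (adjusted p = 4.69e-12, edgeR), HMOX1, haem oxygenase, by 1.88 ± 0.06 (adjusted p = 3.57e-12), PIR by 1.72 ± 0.18 (adjusted p = 5.63e-06) and TXNRD1, thioredoxin reductase, by 1.53 ± 0.05 (adjusted p = 4.18e-12). With TNF alone 6 of the 26 were higher and 6 lower (median 0.01), beside 17.2% and 13.3% of all tested genes. Among NRF2 itself and its regulators, 4 of 8 were higher with Tub B (median 0.17): MAFG, a partner of NRF2 (0.46 ± 0.06, adjusted p = 0.000106), BACH1, a repressor at the same elements (0.30 ± 0.07, adjusted p = 0.0133), NFE2L2, the NRF2 gene (0.30 ± 0.06, adjusted p = 0.00222), and KEAP1 (0.22 ± 0.05, adjusted p = 0.0116).

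The aryl hydrocarbon receptor and its targets had 3 of 5 genes higher with Tub B (median 0.46), leaving out CYP1A1, which passed the filter only through Tub B. CYP1B1, a cytochrome induced by the receptor, went from 1.16 CPM in mock to 11.9 in Tub B (3.38 ± 0.18, adjusted p = 1.07e-09, edgeR), TIPARP, a feedback inhibitor, rose by 0.90 ± 0.05 (adjusted p = 1.07e-09) and AHR by 0.46 ± 0.06 (adjusted p = 0.000103). CYP1A1, the classic target, had 2 and 5 counts in mock and 11 and 15 in Tub B. With Tub B on top of TNF 2 of the 5 were higher and 0 lower by edgeR, DESeq2 and limma-voom, with 0 lower at an unadjusted p under 0.05 in edgeR.

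**Figure D4:**
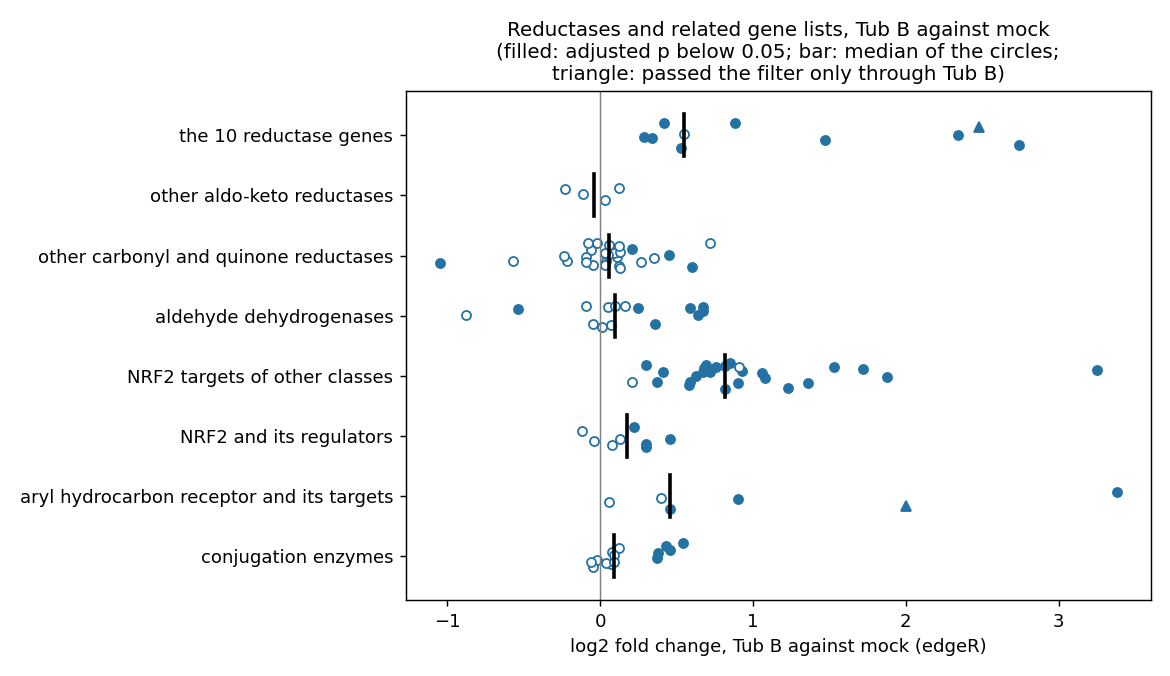
Log2 fold change in Tub B against mock (edgeR) of the tested genes in each list; filled points passed an adjusted p of 0.05, triangles (AKR1B10 and CYP1A1) passed the filter only through Tub B, and bars are medians without them. The medians are 0.55 for the other 9 reductases, 0.82 for the other NRF2 targets and 0.46 for the aryl hydrocarbon receptor list, and lie between -0.04 and 0.17 for the remaining lists.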

How the data were processed

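Poly(A) RNA of 8 MH7A libraries was sequenced. The authors deposited 1 table of read counts per gene symbol, not normalised. Per the submitters' processing notes, STAR 2.7.0 and featureCounts were used; the builds mm10 and hg19 are named without a role. All 8 count columns matched a sample's labels, and 0 columns were left without one.

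Genes were kept by filterByExpr (minimum count 10, minimum total 15), scaled by TMM and tested with glmQLFit and glmQLFTest (edgeR 4.0.16, R 4.3.3) on all 8 libraries in 4 groups, with 4 residual and 13.1 prior degrees of freedom. Adjusted p-values are Benjamini-Hochberg values over 16647 genes. Scripts were tested on simulated data. CPM are scaled by TMM and SEs are those of the log2 fold change. DESeq2 1.42.0, limma-voom (limma 3.58.1), other scalings and filters, a replicate block and each library left out were alternatives.

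The members and lists were chosen with earlier results of these data known. From each other list, up to 4 genes called in Tub B against mock were named, by size of change, at 5 CPM or more and with no overlap; beside each member, the 3 genes of highest correlation. GENCODE v29 gave lengths and RefSeq the promoter windows (8 of 10 members); neither is the build of the counts, so no coordinate is that of the counts.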

Additional observations from a re-analysis of the deposited data

Results flagged for a closer look

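For NQO1 the response to Tub B differed between cells with and without TNF by a test of the difference itself. The interaction was -0.51 ± 0.08 on the log2 scale (adjusted p = 0.000586, edgeR with Benjamini-Hochberg adjustment), and it ranged from -0.58 to -0.44 when libraries were left out in turn.

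AKR1B1 differed in the same way, with an interaction of -0.25 ± 0.06 (adjusted p = 0.0165, edgeR). Its adjusted p was 0.0540 to 0.0942 when TNF replicate 1 or 2, TNF + Tub B replicate 1 or 2, or Tub B replicate 1 was left out.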

How the results depend on the processing

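Of 841 alternative values of the 50 member results, 797 stayed on their side of the threshold (15 of them with another sign, called in neither fit), 35 lost the call, 8 gained it and 1 reversed: with the AKR1C rows summed, AKR1C3 for TNF on top of Tub B takes the family's value of 0.70, since AKR1C1 dominates the sum. These totals include AKR1B10, which passed the filter only through Tub B. They also include results called in neither fit, which do not show whether a call holds. The summed row was counted as an alternative of AKR1C1, AKR1C2 and AKR1C3 in every comparison. For AKR1C2 and AKR1C3 it says little about the gene itself, whether or not it stayed on the same side. AKR1B10 has no value under the strict filter or, in the comparisons with TNF as control or as the only agent, when only the groups compared are fitted; DESeq2 gave no adjusted p for AKR1B10 and AKR1C3 with Tub B alone, AKR1B10 for TNF on top of Tub B, and AKR1C2, AKR1C3, AKR1B10 and CBR3 for the interaction; and the interaction cannot be fitted on a pair of groups. Without genes that passed the filter through 1 group, an alternative chosen after seeing the data, members called were 2, 7, 8, 5 and 2 for TNF alone, Tub B on top of TNF, Tub B alone, TNF on top of Tub B and the interaction, against 2, 7, 9, 5 and 2 with AKR1B10 counted. Members called were 4 for Tub B on top of TNF with DESeq2 and also 4 at an adjusted p below 0.01, 3 for TNF on top of Tub B with DESeq2, and 1 for the interaction with library totals and also 1 at an adjusted p below 0.01. With libraries left out in turn, members called, AKR1B10 included, ranged from 2 to 3 for TNF alone, 4 to 7 for Tub B on top of TNF, 7 to 9 for Tub B alone, 4 to 5 for TNF on top of Tub B, and 1 to 2 for the interaction.

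Genes called over the whole table, in the order TNF alone, Tub B on top of TNF, Tub B alone, TNF on top of Tub B and interaction, were 5077, 3367, 2120, 4397 and 705. DESeq2 called 3301, 1950 and 1264 in the first 3 and 420 for the interaction. An adjusted p below 0.01 left 2106 for Tub B on top of TNF, 1058 for Tub B alone and 326 for the interaction. Leaving out libraries gave 3493 to 4971, 2024 to 3798, 715 to 2130, 2980 to 4792 and 306 to 1328. Library totals turned the split of higher against lower genes from 2857 and 2220 to 2147 and 3474 for TNF alone, from 1184 and 2183 to 3431 and 1325 for Tub B on top of TNF, and from 804 and 1316 to 1530 and 867 for Tub B alone. The cause was not tested.

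Same-numbered libraries did not deviate together over the 16647 tested genes (r from -0.0479 to 0.0473 over pairs of groups). Such an r over all genes cannot decide whether the numbers pair libraries in depth or in a subset of genes. Replicate 1 had the higher total in every group, with 28035754 against 18041883 counts in mock and 31937334 against 19975540 in TNF. Totals were 16861895 against 14073186 in TNF + Tub B and 20843251 against 18987139 in Tub B. The reason was not tested. With a replicate block, members called (AKR1B10 counted) were 2, 7, 9, 5 and 2, as without it. More genes were called with the block in each comparison: 5368, 3656, 2492, 4671 and 914, against 5077, 3367, 2120, 4397 and 705 without it.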

Other observations

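The protein-coding genes next to the members on the chromosome were looked up after the members' values were seen. Beside AKR1B1, which rose 5.38-fold with TNF, SLC35B4 gave -0.05 ± 0.06 with TNF (adjusted p = 0.544, edgeR) and rose with Tub B on top of TNF (0.22 ± 0.06, adjusted p = 0.0160), and AKR1B15 had 0 to 2 counts per library. Beside NQO1, NOB1 gave -0.04 ± 0.08 with Tub B (adjusted p = 0.840) and NFAT5, an osmotic stress factor known to act on the aldose reductase gene, fell with Tub B (-0.22 ± 0.05, adjusted p = 0.00527) and with TNF (-0.39 ± 0.05, adjusted p = 3.25e-06). Beside CBR1 and CBR3, SETD4 gave 0.11 ± 0.09 with Tub B (adjusted p = 0.499) and DOPEY2 fell by 0.60 ± 0.07 (adjusted p = 2.07e-05). Beside NQO2, RIPK1, a kinase of TNF receptor signalling, gave 0.06 ± 0.07 with Tub B (adjusted p = 0.590) and rose with TNF by 0.48 ± 0.06 (adjusted p = 8.61e-06), and SERPINB6 gave 0.08 ± 0.05 with Tub B (adjusted p = 0.312), rose with Tub B on top of TNF by 0.20 ± 0.05 (adjusted p = 0.00751) and fell with TNF by 0.25 ± 0.05 (adjusted p = 0.000453). Beside PTGR1, ZNF483 was at 4.26 and 2.99 CPM in mock, 3.07 and 3.25 in TNF, 6.53 and 4.57 with both agents, and 4.53 and 6.13 in Tub B, and rose with Tub B on top of TNF (0.84 ± 0.22, adjusted p = 0.0101) but was not called with Tub B alone (0.51 ± 0.21, adjusted p = 0.123). DNAJC25, on the other side of PTGR1, gave -0.01 ± 0.13 with Tub B (adjusted p = 0.966). Beside the AKR1C genes, AKR1E2 gave -0.11 ± 0.21 with Tub B (adjusted p = 0.795).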
